A study of Homo sapiens with 8 samples.

Results

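The 35 genes described here are established transcriptional targets of the tumour suppressor p53, grouped by the roles their products play in feedback control, growth arrest, apoptosis, DNA repair and metabolism. They were taken by gene symbol from tables of 19158 genes, and all 35 were found once. The RNA came from A549, a human lung adenocarcinoma line of epithelial origin that is labelled as wild type in genotype, grown in 8 culture wells with 1 library each. Untreated cells gave 4 libraries, numbered 1, 3, 4 and 5, and another 4 with the same numbers came from cells exposed to 1 µM dexamethasone for 48 h. Dexamethasone is a synthetic steroid and an agonist of the glucocorticoid receptor. All libraries had the same batch label, and since all wells hold 1 cell line, p-values measure the spread between wells. Values were read as FPKM (fragments per length of transcript and per library size) and scaled between libraries. Fold changes are on the log2(FPKM + 1) scale, which understates the change of low genes.

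In unstressed cells p53 is bound and marked for degradation by MDM2, an E3 ubiquitin ligase that is itself a p53 target, with its relative MDM4 acting as a second inhibitor. Stress signals such as DNA damage release p53, which then switches on genes that stop the cell cycle, repair DNA, adjust metabolism or trigger cell death. A549 is known to carry a deletion of CDKN2A, the gene for the MDM2 inhibitor p14ARF.

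Levels of mRNA cannot show whether p53 protein is functional, so the wild-type label was not checked in that respect. CDKN2A was listed at 0 in all 8 libraries. CDKN1A, which encodes the cell-cycle inhibitor p21 and is the best known p53 target outside the 35, was at 66.8, 56.6, 59.5 and 89.3 FPKM in untreated cells and at 75.9, 30.1, 83.2 and 107 FPKM after dexamethasone. Its values spread so widely, with dexamethasone replicate 3 the lowest of all, that the log2 change of 0.01 had a 95% interval from -0.78 to 0.79 (limma adjusted p = 0.989).

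Keratins KRT8 and KRT18 marked the cells as epithelial, with at least 957 and 805 FPKM in every library (values as deposited), while EPCAM was at 0.14 to 0.765 FPKM. The immune markers PTPRC and CD3E and the fibroblast marker COL1A2 were listed at 0 in all libraries. The summed level of 5 immune markers, nearly all CD68 and CD14, was 5.78 to 7.52 FPKM in untreated and 3.07 to 3.76 FPKM in dexamethasone libraries. That of 7 fibroblast markers, mostly COL1A1 with DCN detected after dexamethasone alone, was 1.89 to 2.43 and 0.638 to 0.826 FPKM, and the 4 endothelial markers summed to at most 0.182 FPKM. FKBP5, an established glucocorticoid-induced gene, rose from 5.69 ± 1.25 to 134 ± 33.3 FPKM (SD, n = 4 each), and no library overlapped the other group. TSC22D3 and PER1, also induced by glucocorticoids, rose by 3.86 and 1.93 on the log2 scale. Untreated replicate 5, and to a lesser degree dexamethasone replicate 5, stood apart from the other libraries of their group, and values without both are given where they change a call or move a value widely.

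All 35 genes were expressed in A549 cells and passed the filter on low values, although the untreated means ran from 2.09 FPKM for TP53INP1 to 144 FPKM for BAX. The median of 8.07 FPKM was close to the 7.94 FPKM of all genes tested. After 48 h of dexamethasone 12 of the 35 were called at a limma adjusted p under 0.05, 6 of them higher and 6 lower, and 23 were not called. Among all 12153 genes tested 27.0% were called, 12.2% higher and 14.8% lower. In 16 of the 35 the groups did not overlap, beside 31.6% of all genes. The median log2 change of the 35 was 0.05, beside 0.00 for all genes. Since these are bulk samples, fewer cells expressing a gene and less RNA per cell cannot be told apart. The count was 10 higher and 9 lower without both libraries numbered 5, and the 12 genes were all among those 19. Background rose there too, with 45.1% of all genes called.

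**Figure D1:**
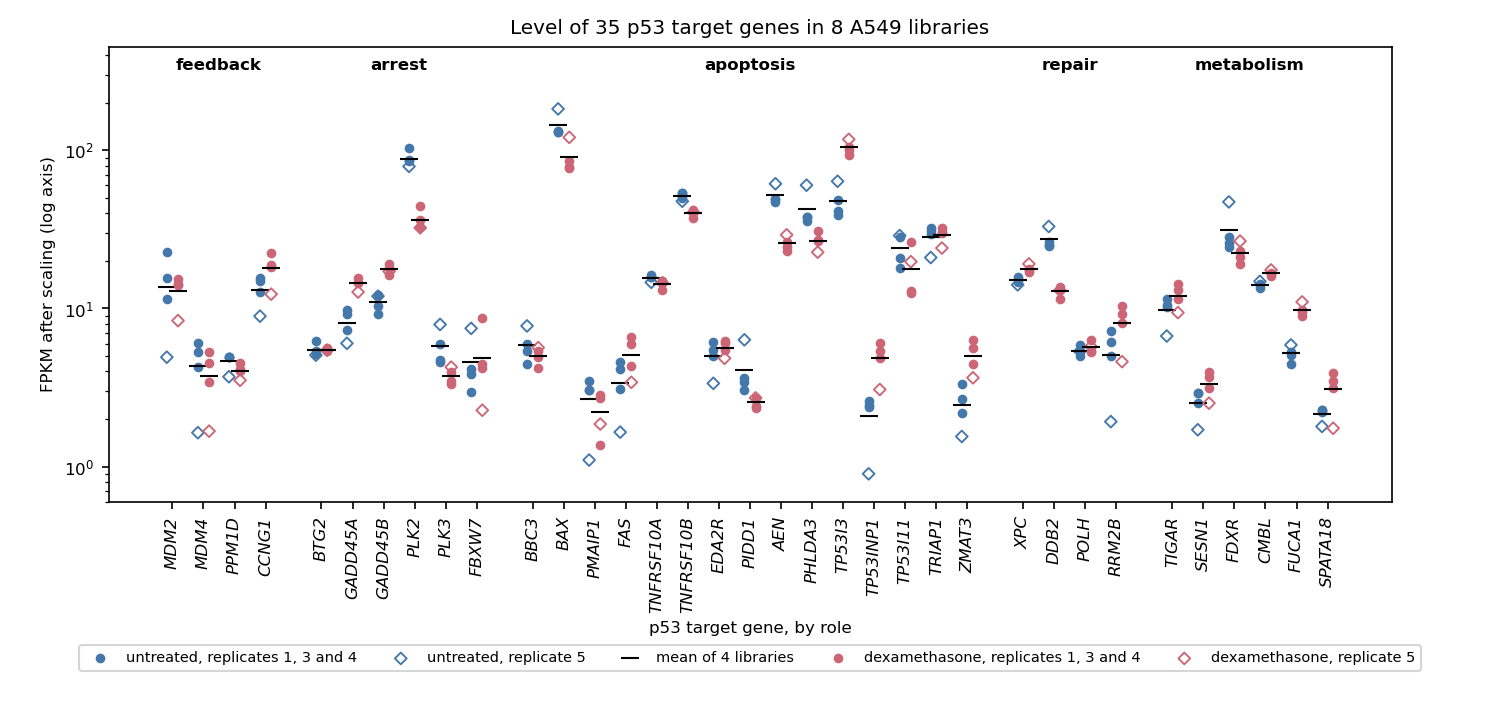
FPKM after scaling between libraries (log axis) of the 35 genes, by role, in each of 4 untreated (blue) and 4 dexamethasone (red) libraries. Open diamonds are the libraries numbered 5 and black bars are means. PLK2, DDB2 and AEN lie lower and TP53I3 and FUCA1 higher in every dexamethasone library, while MDM2 spreads from 4.92 to 22.6 FPKM among untreated libraries alone.

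The promoter windows of the 35 genes were searched for the 10-base p53 decamer, the unit that p53 binds as a pair, to show where the RefSeq start site itself carries one. Windows ran from 250 bases before to 50 after each start (GRCh38.p14, 300 bases). The table held 45 windows for 28 of the 35 genes, and 6 of them, 1 each for 6 genes, matched (13.3%, where 6.65% of all 34796 windows did). GADD45A, TNFRSF10A, TNFRSF10B, PHLDA3, TP53INP1, RRM2B and CMBL had no window and were not searched. Of these, GADD45A, TNFRSF10B, PHLDA3 and TP53INP1 are among the genes called below. The decamer reads the same on both strands as a pattern, so a match belongs to neither. Printed on the strand of the gene, with the decamer in capitals (for DDB2, both decamers and the base between them), they were:
DDB2 (chr11:47214975-47215003): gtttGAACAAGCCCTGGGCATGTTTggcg
PLK2 (chr5:58460205-58460222): gacaAGACTTGCTTcccg
AEN (chr15:88621302-88621319): agccGGGCTTGCCCgggc
FAS (chr10:88991305-88991322): tcctGGACAAGCCCtgac
SESN1 (chr6:109009024-109009041): gtctGGACAAGTCTccac
FDXR (chr17:74872992-74873009): gagcGGGCTTGCCCtgcg

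The DDB2 window was the 1 of the 45 that held 2 decamers within 13 bases of each other, here 1 base apart, an arrangement found in 10 of the 34796 windows. It lies just after the RefSeq start of its window (chr11:47214724-47215023), at bases 6 to 26 from that start. This window lies after the listed gene start at 47214465, and the other DDB2 window (chr11:47214204-47214503) held no match. The matched windows of FAS and SESN1 also lie downstream of the listed gene starts, at 88990582 and 109094819. The PLK2 decamer ends 123 bases before the start, that of AEN 25 bases before it, and that of FDXR 2 bases before it. DDB2, PLK2 and AEN were the 3 genes with the lowest fold changes of the 35, while FAS, SESN1 and FDXR were not called. This was noticed after the values were known and is a description of letters in a window, not of binding. The windows of MDM2 held no match, including chr12:68808767-68809066, which lies after the listed gene start at 68808176. Elements outside the windows, or departing from the exact decamer pattern, would not be found. The hexamer AGAACA, which makes up one side of the glucocorticoid receptor's palindromic element, was found on either strand in 5 of the 45 windows (11.1%), beside 14.8% of all windows.

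Among the 4 feedback regulators no gene was called by limma, nor was any at an unadjusted p under 0.05, and MDM2 was the most variable of them. MDM2 (chromosome 12) was at 22.6, 15.7, 11.5 and 4.92 FPKM before (replicates 1, 3, 4 and 5) and at 15.3, 14.2, 13.99 and 8.38 FPKM in the same order after dexamethasone. The dexamethasone values all lay inside the untreated range. Its log2 change was 0.06 (SE 0.38, 95% interval -0.79 to 0.92, limma adjusted p = 0.915), so neither a rise nor a fall of moderate size lies outside the interval, and it was -0.13 without both libraries numbered 5 (limma adjusted p = 0.649). MDM4, which binds p53 without degrading it by itself, was at 4.28, 6.03, 5.33 and 1.64 FPKM and then at 5.28, 4.55, 3.41 and 1.68 FPKM. Both libraries numbered 5 were the lowest of their group for MDM2 and MDM4. PPM1D, a phosphatase that turns off the DNA damage signal, had 4.64 ± 0.623 and 4.05 ± 0.409 FPKM (SD, n = 4 each) with a log2 change of -0.15 (interval -0.45 to 0.14), and was called with the GC trend removed (-0.24, limma adjusted p = 0.0241). CCNG1, the gene of cyclin G1, which recruits a phosphatase to MDM2, had 13.1 ± 3.04 FPKM untreated and 18 ± 4.15 FPKM with dexamethasone (SD, n = 4 each). CCNG1 thus differed by 0.43 (SE 0.22, limma adjusted p = 0.167), by 0.44 without both libraries numbered 5 (limma adjusted p = 0.0125), and by 0.11 with the trend of each library on GC content removed (limma adjusted p = 0.365).

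Genes tied to growth arrest held the strongest fall and a pair of rises. PLK2, a polo-like kinase that is induced by p53 and acts at checkpoints, was at 85.8, 86.8, 103 and 79.2 FPKM before (replicates 1, 3, 4 and 5) and at 44.2, 36.1, 33.0 and 32.4 FPKM after dexamethasone. Every dexamethasone library was far below every untreated one. Its mean was 2.43-fold lower, with a log2 change of -1.27 (SE 0.14, limma adjusted p = 0.00019), a larger change in size than that of 95.6% of genes tested. Its relative PLK3 was at 5.94, 4.75, 4.56 and 7.92 FPKM and then at 3.50, 3.99, 3.31 and 4.26 FPKM. Those groups did not overlap either, as for 17.5% of all genes in that direction, yet the change of -0.49 (SE 0.17) just missed the threshold (limma adjusted p = 0.0579) and passed it without scaling between libraries (-0.48, limma adjusted p = 0.0234) and without both libraries numbered 5 (-0.39, limma adjusted p = 0.0288). With the GC trend removed PLK3 was at -0.24 (limma adjusted p = 0.0572).

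GADD45A and GADD45B encode small stress proteins that bind cell-cycle and MAP kinase regulators. GADD45A was at 9.23, 7.32, 9.71 and 6.02 FPKM in untreated and at 14.6, 14.7, 15.7 and 12.7 FPKM in dexamethasone libraries. Its mean was 1.79-fold higher (log2 change 0.78, SE 0.16, limma adjusted p = 0.0053). GADD45B was at 12.2, 9.28, 10.4 and 12.0 FPKM and then at 19.0, 16.3, 18.2 and 17.2 FPKM (log2 change 0.65, SE 0.12, limma adjusted p = 0.00402). For both genes the lowest dexamethasone library was above the highest untreated one. BTG2, an antiproliferative factor that promotes mRNA deadenylation, was the flattest of the 35 with 5.46 ± 0.539 and 5.5 ± 0.097 FPKM (SD, n = 4 each), and its interval of -0.24 to 0.26 is narrow. FBXW7, the substrate receptor that targets cyclin E and MYC for degradation, ranged from 2.95 to 7.48 FPKM in untreated and from 2.27 to 8.67 FPKM in dexamethasone libraries, with no call (log2 change 0.02, SE 0.33, and 0.50 without both libraries numbered 5, limma adjusted p = 0.135).

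Apoptosis genes moved both ways, with 3 called higher and 4 lower of 15, beside 12.2% higher and 14.8% lower of all genes. In the mitochondrial arm, BAX, which permeabilises the outer mitochondrial membrane, was the most abundant of the 35 before treatment. It was at 131, 130, 133 and 183 FPKM before (replicates 1, 3, 4 and 5) and at 76.9, 78.8, 86.1 and 121 FPKM after dexamethasone. All 4 dexamethasone values were below all untreated ones, with replicate 5 the highest of each group. BAX fell by 0.67 on the log2 scale (SE 0.19, limma adjusted p = 0.0248). The call was lost without untreated replicate 4 (-0.70, limma adjusted p = 0.0534) or dexamethasone replicate 1, 3 or 4 (-0.59, -0.60 and -0.65, limma adjusted p = 0.0976, 0.0952 and 0.0844). With the trend of each library on GC content removed it was -0.44 (limma adjusted p = 0.00637). The BH3-only genes of the group, BBC3 and PMAIP1, did not pass the threshold. BBC3, which encodes PUMA, had 5.89 ± 1.4 and 5.04 ± 0.64 FPKM (SD, n = 4 each) with a log2 change of -0.17 (interval -0.55 to 0.20). PMAIP1, which encodes NOXA, had 2.67 ± 1.07 and 2.2 ± 0.71 FPKM (SD, n = 4 each) with a log2 change of -0.17 (interval -0.75 to 0.41). PMAIP1 ranged from -0.02 to -0.41 with 1 library left out, and was -0.37 without both libraries numbered 5 and -0.53 with the GC trend removed (limma adjusted p = 0.154 and 0.0572).

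Of the death receptors, TNFRSF10B was lower and the others were not called. TNFRSF10B, the TRAIL receptor DR5, was at 53.7, 54.0, 50.0 and 47.6 FPKM in untreated and at 40.7, 41.7, 37.1 and 40.5 FPKM in dexamethasone libraries. The groups were clearly apart although the step was small, with a mean 1.28-fold lower and a log2 change of -0.35 (SE 0.11, limma adjusted p = 0.0424). Its call was the weakest of the 12: it was lost with median-of-ratios scaling (-0.32, limma adjusted p = 0.0586), without scaling (-0.34, limma adjusted p = 0.0896), and without any single library other than untreated replicate 5 (-0.31 to -0.36, limma adjusted p = 0.0585 to 0.153). TNFRSF10A, the sister receptor DR4, had 15.6 ± 0.709 and 14.4 ± 0.861 FPKM (SD, n = 4 each), a log2 change of -0.12 with an interval from -0.36 to 0.12. FAS was at 3.08, 4.56, 4.17 and 1.65 FPKM and then at 6.61, 4.33, 5.99 and 3.41 FPKM, so the groups overlapped (log2 change 0.50, SE 0.26, limma adjusted p = 0.181). EDA2R, a receptor for ectodysplasin A2, had 5.01 ± 1.19 and 5.66 ± 0.64 FPKM (SD, n = 4 each) and was not called.

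Further down the apoptosis group, AEN, a nuclear exonuclease that degrades DNA in dying cells, was at 49.5, 47.4, 48.9 and 61.5 FPKM in untreated and at 23.1, 24.6, 26.2 and 29.2 FPKM in dexamethasone libraries. This 2.01-fold lower mean (log2 change -0.98, SE 0.13, limma adjusted p = 0.000529) was the largest fall within the group. PHLDA3, which competes with AKT for membrane lipids, was at 35.5, 37.8, 38.0 and 60.2 FPKM and then at 27.1, 30.7, 26.8 and 22.7 FPKM. Untreated replicate 5 was far the highest, and PHLDA3 went from -0.63 (SE 0.18, limma adjusted p = 0.0299) to -0.38 without both libraries numbered 5 (limma adjusted p = 0.00808). With the GC trend removed it lost its call at -0.39 (limma adjusted p = 0.0596). It was also lost without untreated replicate 4 (-0.67, limma adjusted p = 0.0506) or dexamethasone replicate 1, 3, 4 or 5 (-0.62, -0.69, -0.63 and -0.56, limma adjusted p = 0.0814, 0.0538, 0.0817 and 0.0624). PIDD1, a scaffold for caspase-2 activation, had 4.10 ± 1.51 and 2.55 ± 0.194 FPKM (SD, n = 4 each). Its groups did not overlap, as for 17.5% of all genes in that direction. Its log2 change of -0.48 (SE 0.18) did not pass (limma adjusted p = 0.0812), though it did without scaling (-0.47, limma adjusted p = 0.0366) and without both libraries numbered 5 (-0.31, limma adjusted p = 0.0327). With the GC trend removed PIDD1 was at -0.19 (limma adjusted p = 0.155).

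The rises in the apoptosis group were TP53I3, TP53INP1 and ZMAT3. TP53I3, also called PIG3, is a quinone oxidoreductase that generates reactive oxygen species. It was at 48.6, 39.1, 41.1 and 63.7 FPKM in untreated and at 105, 100.7, 93.8 and 117 FPKM in dexamethasone libraries. TP53I3 had a mean 2.17-fold higher (log2 change 1.12, SE 0.17, limma adjusted p = 0.00111). TP53INP1, a stress protein that assists p53 phosphorylation and autophagy, was at 2.45, 2.62, 2.39 and 0.901 FPKM and then at 6.02, 4.85, 5.39 and 3.07 FPKM. Replicate 5 was the lowest of both groups, and the mean was 2.31-fold higher (log2 change 0.93, SE 0.24, limma adjusted p = 0.0189). Its call was lost without dexamethasone replicate 1 (0.84, limma adjusted p = 0.0534) or 4 (0.89, limma adjusted p = 0.0513). ZMAT3, an RNA-binding zinc finger protein that regulates splicing, was at 2.696, 3.35, 2.17 and 1.55 FPKM and then at 6.31, 4.46, 5.66 and 3.65 FPKM (log2 change 0.81, SE 0.20, limma adjusted p = 0.015). With the GC trend removed the rise of ZMAT3 was 0.49 (limma adjusted p = 0.00647). The last members of the group, TP53I11 (24 ± 5.39 and 17.9 ± 6.58 FPKM) and TRIAP1 (28.4 ± 5.12 and 29.2 ± 3.55 FPKM, SD, n = 4 each), a mitochondrial inhibitor of apoptosis, were not called.

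**Figure D2:**
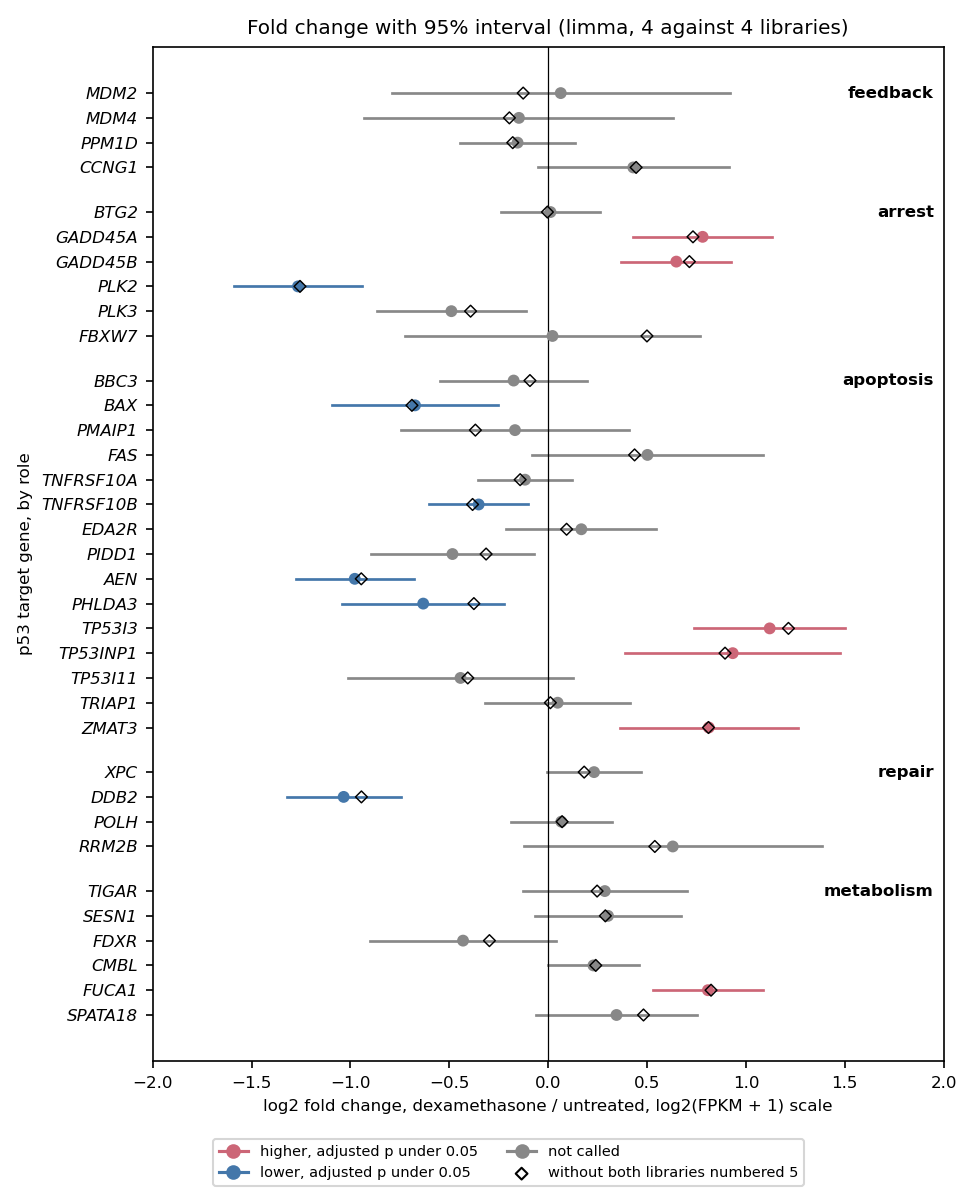
Log2 change (dexamethasone against untreated, log2(FPKM + 1) scale) with its 95% interval for the 35 genes, by role. Red and blue mark the 6 genes called higher and the 6 called lower, grey the others, and open diamonds the estimate without both libraries numbered 5. FBXW7 and PHLDA3 move most between the estimates, and MDM2 and MDM4 have intervals wide on both sides of 0.

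Of the 4 repair genes only DDB2 was called. DDB2 encodes the damage sensor that brings nucleotide excision repair to ultraviolet lesions, and a RefSeq start within the gene carries the paired decamers printed above. It was at 25.3, 24.9, 26.4 and 33.0 FPKM in untreated and at 13.6, 13.2, 11.4 and 13.01 FPKM in dexamethasone libraries, with a wide gap between the groups. The mean was 2.14-fold lower (log2 change -1.03, SE 0.13, limma adjusted p = 0.000313). XPC, the other damage sensor of the pathway, was at 15.8, 14.8, 15.4 and 14.1 FPKM and then at 17.8, 17.0, 17.5 and 19.1 FPKM. Every dexamethasone value of XPC lay above every untreated one, as for 14.1% of all genes, but the change of 0.23 (SE 0.11) was not called (limma adjusted p = 0.135) unless the GC trend was removed (0.37, limma adjusted p = 0.0132). POLH, the translesion polymerase eta, had 5.39 ± 0.368 and 5.7 ± 0.472 FPKM (SD, n = 4 each) and an interval from -0.19 to 0.32. RRM2B, the p53-inducible subunit of ribonucleotide reductase, was at 5.04, 6.14, 7.23 and 1.93 FPKM and then at 10.4, 8.10, 9.23 and 4.61 FPKM. In both groups RRM2B was lowest in replicate 5, and its log2 change of 0.63 (SE 0.34, limma adjusted p = 0.192) passed only without both of those libraries (0.54, limma adjusted p = 0.0149) among the fits without a replicate term. It was 0.23 with the GC trend removed (limma adjusted p = 0.277).

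In the metabolic group FUCA1 was the single call. FUCA1, a lysosomal fucosidase, was at 5.34, 4.47, 5.07 and 5.88 FPKM in untreated and at 9.47, 9.83, 9.001 and 11.0 FPKM in dexamethasone libraries. It was higher in every treated library, with a mean 1.89-fold higher (log2 change 0.81, SE 0.12, limma adjusted p = 0.00105). CMBL, a hydrolase, had tight values of 14.1 ± 0.559 and 16.7 ± 0.58 FPKM (SD, n = 4 each). Its groups did not overlap, as for 14.1% of all genes in that direction. Its log2 change of 0.23 (SE 0.10) was not called (limma adjusted p = 0.129) but was with the GC trend removed (0.25, limma adjusted p = 0.0183) and without both libraries numbered 5 (0.24, limma adjusted p = 0.0294). TIGAR, which diverts glucose toward the pentose phosphate pathway, had 9.75 ± 2.11 and 12 ± 2.07 FPKM, and SESN1, an mTORC1-restraining sestrin, 2.52 ± 0.567 and 3.33 ± 0.646 FPKM (SD, n = 4 each). SPATA18, which acts in mitochondrial quality control, had 2.14 ± 0.234 and 3.08 ± 0.937 FPKM (SD, n = 4 each) and was called without dexamethasone replicate 5 (0.53, limma adjusted p = 0.015) but not with it (0.35, limma adjusted p = 0.185). SPATA18 was also called without both libraries numbered 5 (0.48, limma adjusted p = 0.00465), but not with the GC trend removed (0.24, limma adjusted p = 0.203). FDXR, the mitochondrial ferredoxin reductase, had 31.5 ± 10.6 and 22.5 ± 3.22 FPKM (SD, n = 4 each, log2 change -0.43, limma adjusted p = 0.156), and was called without both libraries numbered 5 (-0.30, limma adjusted p = 0.0357) but was at -0.15 with the GC trend removed (limma adjusted p = 0.294).

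Members differed in how tightly wells agreed, and in the libraries numbered 5 the departures moved with the base composition of their transcripts. In untreated replicate 5 MDM2 (39.5% GC), RRM2B (35.1% GC) and MDM4 (42.3% GC) differed from the mean of the other untreated libraries by -1.52, -1.27 and -1.23 log2 units. The GC-rich FDXR (64.3% GC) and PIDD1 (66.1% GC) lay 0.82 and 0.75 above it. Across the 35 genes this departure rose with GC content, with Spearman rho 0.88 for untreated and 0.794 for dexamethasone replicate 5. The same values over 12122 genes were 0.773 and 0.721. Genes share these libraries and are not independent, so the correlations are descriptions. FBXW7 was an exception, 0.88 above the others in untreated and -0.98 relative to them in dexamethasone replicate 5. The called gene PHLDA3 (59.0% GC) also changed side, at 0.685 in untreated and -0.298 in dexamethasone replicate 5. A few other genes did so with smaller departures. The fold change itself fell with GC content (rho -0.473 over the 35 genes and -0.448 over all). The 6 genes called higher had a median GC content of 49.5% and the 6 called lower 54.9%. With the GC trend removed 11 of the 12 were still called, the exception being PHLDA3. That fit called 37.3% of all genes, beside 27.0% in the main fit. Among genes not called in either fit, FAS went from 0.50 to 0.30, TP53I11 from -0.44 to -0.20, TIGAR from 0.29 to 0.05, SESN1 from 0.30 to 0.05 and MDM4 from -0.15 to -0.34.

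**Figure D3:**
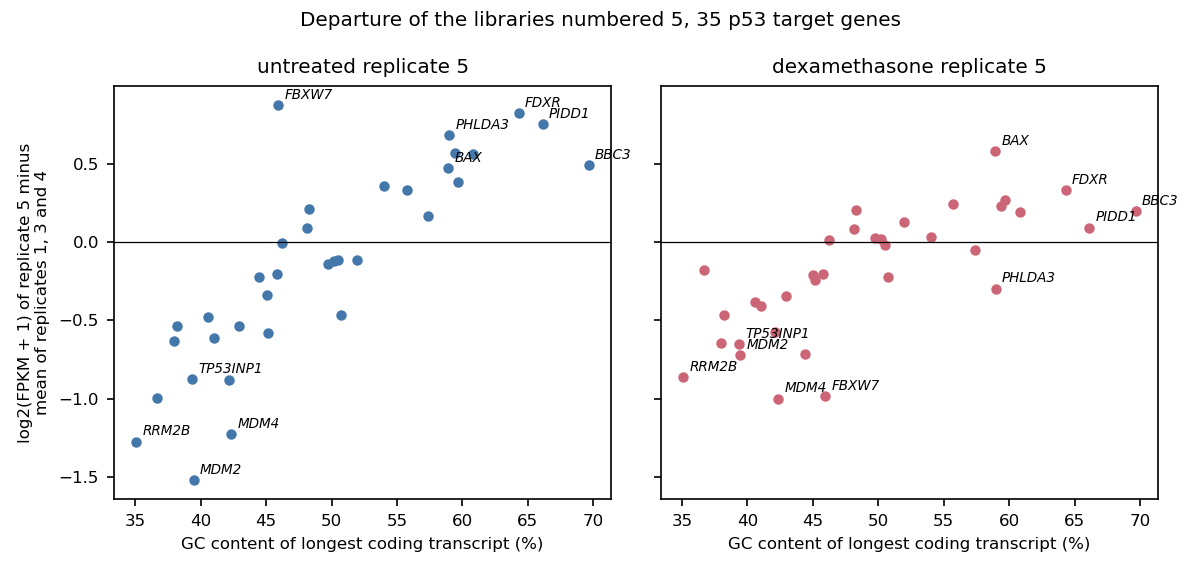
Departure of replicate 5 from the mean of replicates 1, 3 and 4 of the same group, in log2(FPKM + 1), against the GC content (%) of each of the 35 genes' longest coding transcript. Points rise from left to right in both panels (rho 0.88 and 0.794), and FBXW7 and PHLDA3 are among the genes that change side between them.

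Several neighbours of these genes in the genome limit single values. The exons of MDM2, BBC3, FAS, PHLDA3 and TIGAR overlap another annotated gene on the same strand, and those of 15 of the 35 overlap one on the opposite strand. Of the called genes, TNFRSF10B, TP53I3 and TP53INP1 have such an opposite-strand neighbour and PHLDA3 a same-strand one. How shared reads and strand were treated in the counting is not given in the sources used here.

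Other genes of the pathway were taken from lists written with the role groups. Their counts stand beside 27.0% of all genes called, 12.2% higher and 14.8% lower. Of 40 further p53 targets, 37 were tested and 15 called (40.5%), 5 higher and 10 lower, with a median log2 change of 0.01. The leading ones by p were IGFBP3, an IGF-binding protein, which fell from 28.5 ± 2.02 to 8.29 ± 0.915 FPKM (log2 change -1.67, limma adjusted p = 1.12e-05), and the stress cytokine GDF15 (-2.57, limma adjusted p = 3.36e-05). Of 26 genes that regulate p53 or are its family, 24 were tested, 1 was higher and 2 lower (12.5% called). The higher one was HIPK2, a kinase that phosphorylates p53, at 18.6, 19.6, 19.7 and 10.3 FPKM in untreated and 54.2, 53.7, 50.4 and 43.8 FPKM in dexamethasone libraries. Its mean was 2.96-fold higher (log2 change 1.55, SE 0.20, limma adjusted p = 0.00047). TP63, a p53 relative, was low at 0.944 ± 0.232 and 0.428 ± 0.18 FPKM (SD, n = 4 each, log2 change -0.45, limma adjusted p = 0.0203). It passed the filter through the untreated libraries and 1 treated one alone, so its call is no support. Its fold change was -1.02 with a pseudocount of 0.1, and it lost its call without dexamethasone replicate 3 or 4 (-0.44 and -0.41, limma adjusted p = 0.053 and 0.0646).

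The cell-cycle genes that p53 is known to repress through p21 and the DREAM complex were called in 1 direction. Of 20, all tested, 16 were called (80%), each of them lower, beside 14.8% of all genes called lower. The other 4 did not pass, and the median log2 change was -1.04. CCNB1, the mitotic cyclin B1, went from 102 ± 9.86 to 38.1 ± 4.51 FPKM (SD, n = 4 each, log2 change -1.40, limma adjusted p = 6.01e-05). CDKN1A, as given above, had no call beside them. In the nucleotide excision repair list 8 of 19 were called (42.1%, beside 27.0% of all genes), 2 higher and 6 lower. The higher ones were CETN2 and ERCC6, and the lower ones LIG1, PCNA, RPA1, RPA2, RPA3 and ERCC3. The genes of the list with the smallest p were the replication genes LIG1 (-1.40, limma adjusted p = 0.000589) and PCNA (-1.06, limma adjusted p = 0.000953).

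Partners of the apoptosis members were listed separately. In the BCL2 family 2 of 11 tested genes (18.2%, beside 27.0% of all genes), MCL1 and HRK, were called, both higher. MCL1, a guardian against BAX and BAK activation, was at 33.8, 36.4, 34.4 and 20.9 FPKM in untreated and at 86.3, 70.8, 84.8 and 59.1 FPKM in dexamethasone libraries (log2 change 1.25, SE 0.20, limma adjusted p = 0.0016). HRK, a BH3-only killer, was at no more than 0.0703 FPKM in untreated and at 0.945 to 1.27 FPKM in dexamethasone libraries. It passed the filter on low values only through the group where it is high, so its call is no support, and a filter at 1 FPKM removes it. In the death receptor and caspase list, where DIABLO has more than 1 entry, 1 of 18 tested entries (5.56%) was called. That gene, the inhibitor of apoptosis BIRC3, had 3.69 ± 1.9 and 10.8 ± 4.41 FPKM (SD, n = 4 each, log2 change 1.36, limma adjusted p = 0.0212). BIRC3 lost its call without untreated replicate 1 (1.31, limma adjusted p = 0.0553) or dexamethasone replicate 1 or 4 (1.21 each, limma adjusted p = 0.0613 and 0.0595). Its neighbour by p, BIRC2, was not called (0.65, limma adjusted p = 0.0579). BIRC2 passed without both libraries numbered 5 (0.63, limma adjusted p = 0.0102) but not with the GC trend removed (0.33, limma adjusted p = 0.065). FASLG, the ligand of FAS, was listed at 0 in all libraries, and TNFSF10, which encodes TRAIL, was at 0.352 FPKM or less.

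Paralogs of the members that are not classed as p53 targets here, or are so only in the further list were listed too. Of 29, 26 were tested and 13 called (50%, beside 27.0% of all genes), 6 higher and 7 lower, with a median of 0.06. BTG1, the sister of the unmoved BTG2, was at 17.4, 16.1, 16.3 and 14.5 FPKM in untreated and at 36.3, 36.9, 33.0 and 32.4 FPKM in dexamethasone libraries (log2 change 1.06, SE 0.11, limma adjusted p = 0.000123). PFKFB3, whose bisphosphatase domain is related to TIGAR, fell from 126 ± 8.68 to 51.9 ± 4.73 FPKM (SD, n = 4 each, -1.27, limma adjusted p = 7.4e-05).

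**Figure D4:**
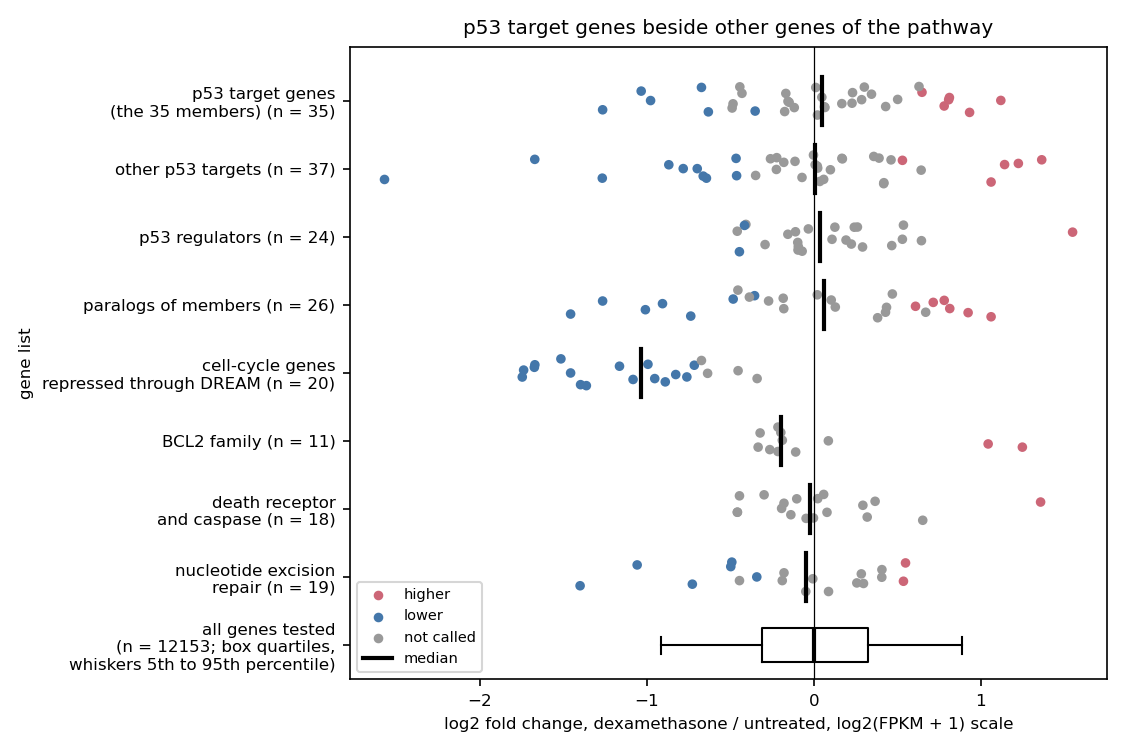
Log2 change of every tested gene in the 35 p53 targets and in 7 related lists, with black bars at the medians. Red and blue mark genes called higher and lower, and the box and whiskers show the quartiles and outer percentiles of all 12153 genes tested. The DREAM-repressed cell-cycle list has the median farthest from 0 (-1.04), and the 35 targets spread on both sides of 0.05.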

How the data were processed

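RNA-seq values of 8 A549 libraries were analysed, 4 untreated and 4 dexamethasone, grouped by their titles. Per the submitters' processing notes and the design text, the authors used FastQC 0.11.9, Cutadapt 3.4, STAR 2.7.9a on GRCh38, and featureCounts (Subread 2.0.3). The annotation and the strand setting are not given in the sources used here. The deposited values are not whole numbers, and they were read as FPKM. Value times transcript length sums to a similar total in every library (8.80e+08 to 9.87e+08). The plain values do so as well (338989 to 373855), so similar totals alone do not settle the unit. The files give no depth per library. Steps between low values did not yield whole reads (at most 50.6% lay within 0.1 of a whole number), so counts were not recovered, no count test was run and precision rests on the 4 wells.

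FPKM were brought to 1 scale by TMM (0.3 of M and 0.05 of A trimmed on each side) and filtered at 0.5 FPKM in at least 4 libraries (3 where libraries were left out). Then log2(FPKM + 1) was fitted with limma 3.58.1 (R 4.3.3, trend and robust, group as the only term, two-sided, Benjamini-Hochberg over all genes). Tested on simulated data (4 against 4 libraries, genes of at least 2 FPKM changed), it recovered 9.5% of 200 genes changed 1.5-fold in 12107 genes, 40.5% at 2-fold in 12103 and 85% at 4-fold in 12093, with 2, 3 and 20 false calls. At 4-fold the false share, 20 beside 170 true calls, was above the nominal level. Far fewer genes were changed there than were called in the data, so these recoveries hold for the simulated setting only. GENCODE v44 gave GC content and overlaps, and RefSeq gave promoters. All members are described, with CDKN1A, CDKN2A and the 2 genes of smallest p in each related list, apart from items that are not reported here. Members and lists were chosen with earlier results of these data known. Alternatives changed the pseudocount, filter, scaling, GC trend, replicate block and libraries.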

Additional observations from a re-analysis of the deposited data

Results flagged for a closer look

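Among 70 groups of 4 values (35 genes in each treatment), 7 held a library that stood far from the other 3. By chance about 1 group in 20 would. All 7 were untreated replicate 5. It was low for PPM1D at 3.70 FPKM, TP53INP1 at 0.901 FPKM and SPATA18 at 1.79 FPKM, and high for BAX at 183 FPKM, AEN at 61.5 FPKM, PHLDA3 at 60.2 FPKM and FDXR at 47.2 FPKM. The transcripts of the low genes have 39.4% to 45.0% GC and those of the high genes 55.7% to 64.3%. The part of base composition in these values was not tested gene by gene.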

How the results depend on the processing

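Of 560 member values under 16 alternatives, 503 kept direction and side of the threshold, 21 lost their call, 20 gained one and 16 changed sign. No call changed direction. GADD45A, GADD45B, PLK2, AEN, TP53I3, ZMAT3, DDB2 and FUCA1 were called in all 16. The cause of the changes was not tested.

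With the GC trend removed, MDM2 was -0.22, FBXW7 -0.030, BBC3 0.15 and TRIAP1 -0.12 on the log2 scale, 2232 of all genes were higher, and 6 p53 regulators and 2 death receptor or caspase genes were called. That last list had 3 calls without a filter and 2 without scaling, where excision repair had 5. At a filter of 1 FPKM the BCL2 family had 1.

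Same-numbered libraries deviated together with correlations of 0.291, 0.0659, 0.314 and 0.713 (numbers 1, 3, 4 and 5), and untreated replicate 3 correlated best with dexamethasone replicate 1 (0.432), so the numbers were not taken as a pairing. With the replicate number as a block, 9 members were higher and 10 lower, beside 2847 and 2922 of all genes. The 7 members gained were PLK3, FAS, PIDD1, TP53I11, FDXR, CCNG1 and RRM2B. The lists then had 8 calls (p53 regulators), 4 (BCL2 family), 8 (death receptors and caspases) and 20 (paralogs).

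Leaving out 1 library, or both numbered 5, gave 5 to 10 members higher and 3 to 9 lower, and 1051 to 2722 genes higher and 1233 to 2790 lower in all. Calls were 1 to 10 among p53 regulators, 2 to 4 in the BCL2 family, 0 to 6 among death receptors and caspases, 4 to 13 in excision repair and 10 to 20 among paralogs. The highest count of each came without both libraries numbered 5. The members' median was -6.86e-05 to 0.13, MDM2 -0.30 to 0.35, MDM4 -0.44 to 0.10, BTG2 -0.0042 to 0.068, FBXW7 -0.24 to 0.50, TRIAP1 -0.067 to 0.13 and CDKN1A -0.21 to 0.40. In the simulation 40.5% of 2-fold changes were recovered, with 200 genes changed and the untreated spread in both groups. In the data 27.0% of all genes were called, so that recovery does not give the share missed here.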
